A study of Mus musculus with 4 samples.

Results

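The genes described here encode ADP-ribosyltransferases of the PARP family, given as *Parp1*, *Parp2*, *Parp3*, *Parp8*, *Parp9*, *Parp10*, *Parp11*, *Parp12* and *Parp14*, and the ubiquitin ligase *Dtx3l*. They were taken by symbol from the probe annotation, and only a probe set carrying that symbol alone gives a gene's value. Of the 10 genes, 8 have such a probe set, among 22180 gene symbols that have one. *Dtx3l* and *Parp10* are measured only by probe sets annotated to a second gene, *Parp9* and *Plec*, and their values stand below as those of shared probe sets. RNA came from primary cerebral cultures of 3-day-old C3H/He pups, labelled as primary astrocytes, on 4 Affymetrix Mouse Gene 2.0 ST arrays. The cells had received benztropine at 2.0 μM together with interferon-gamma (IFNγ) at 250 IU/mL, IFNγ alone, benztropine alone, or no agent (control), each for 48 h. Every condition is 1 array with RNA of 3 cultures mixed, so no spread between cultures can be measured, and the precision is limited by the number of arrays. The sample labels and the methods name different culture media.

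PARP enzymes take NAD apart and attach its ADP-ribose part to proteins. PARP1 and PARP2 bind broken DNA and build long chains of ADP-ribose that call in repair factors, and PARP3 attaches single units at double-strand breaks. Most other family members, among them PARP8, PARP10, PARP11, PARP12 and PARP14, attach single units. In human and mouse cells, several of these and the PARP9-DTX3L pair are known interferon-induced genes with parts in antiviral defense. By this background, *Parp9*, *Parp10*, *Parp11*, *Parp12*, *Parp14* and *Dtx3l* were taken as interferon-inducible members and *Parp1*, *Parp2* and *Parp3* as DNA repair members, with *Parp8* in neither group.

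Values are RMA signals on the log2 scale, so levels can be compared between arrays but not between genes. The effect of IFNγ was read from 2 separate pairs of arrays, IFNγ against control and both agents against benztropine alone. A gene is said to have changed past the threshold at 1.5-fold, a log2 difference of 0.58. The arrays had median signals between 6.65 and 6.68 over 41345 probe sets. On each array, the signal below which 95% of 1400 probe sets of odorant and pheromone receptors lay was taken as background. It was between 6.64 and 6.69, and 57.2% to 58.4% of named probe sets exceeded it. All probe sets annotated to the 10 genes lay above this level in all 4 arrays.

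Exposure to IFNγ raised *Parp9*, *Parp11*, *Parp12* and *Parp14*, all 4 interferon-inducible members with a probe set of their own, between 1.81-fold and 2.66-fold against control. None of the 3 DNA repair members and not *Parp8* passed 1.5-fold. The same 4 genes rose between 1.80-fold and 2.01-fold with both agents against benztropine alone. Of the 25341 probe sets with a gene symbol, 1.55% were higher past 1.5-fold with IFNγ than in control and 1.4% with both agents than with benztropine. The shares lower past 1.5-fold were 0.28% and 0.347%. Counting only probe sets above background in either array compared, 2.05% and 1.73% were higher. Both pairs together gave 1.02% of the named probe sets, and 1.51% of those above background. In a limma fit with an additive term for each agent over the 4 arrays, the same 4 members were called higher with IFNγ at an adjusted p under 0.05, where 0.983% of probe sets were called higher and 0.0434% lower. The fit has 1 residual degree of freedom and no term for an interaction of the agents. When unnamed probe sets entered the fit as well, limma called 0 of the 8 members and 14 probe sets higher in all.

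**Figure D1:**
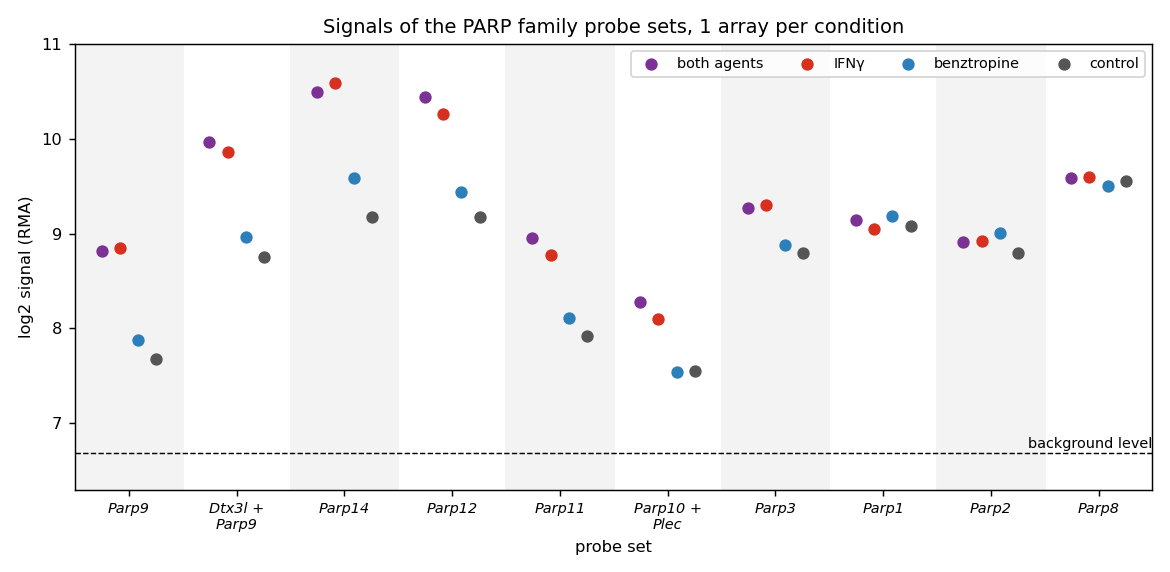
Log2 RMA signal (y axis) of each probe set of the family (x axis) in the arrays for both agents, IFNγ, benztropine and control, 1 point per array and no error bars, with the highest of the 4 background levels dashed. In *Parp9*, *Parp11*, *Parp12* and *Parp14* and in the probe set of *Dtx3l* and *Parp9*, the arrays with IFNγ stand apart above those without it; levels of different probe sets cannot be compared.

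*Parp14*, a large transferase with macrodomains that also acts with STAT6 in transcription, showed the largest difference of the 8 genes against control. Its log2 signal was 10.50 with both agents and 10.59 with IFNγ, against 9.59 with benztropine and 9.18 in control. Both arrays with IFNγ lay above both without it. For this and the other genes, the share of all probe sets with this order was not counted, so it is description only. The difference was 1.41 (2.66-fold) against control, and 90 probe sets above background, 0.597% of them, rose more. With both agents against benztropine the difference was 0.91 (1.88-fold). The additive estimate was 1.16 ± 0.13 (SE), with a limma adjusted p of 0.046, just under the threshold.

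*Parp9* encodes a macrodomain protein that binds DTX3L. Its log2 signal was 8.82 with both agents and 8.85 with IFNγ, against 7.88 with benztropine and 7.68 in control, again without overlap between arrays with and without IFNγ. The difference was 1.18 (2.26-fold) for IFNγ against control and 0.94 (1.92-fold) for both agents against benztropine, and limma gave 1.06 ± 0.09 (SE, adjusted p = 0.0169). The probe set annotated to both *Dtx3l* and *Parp9* had 9.97 with both agents and 9.86 with IFNγ, against 8.96 with benztropine and 8.75 in control. Its differences of 1.11 and 1.01 were close to those of *Parp9* alone, and limma gave 1.06 ± 0.07 (SE, adjusted p = 0.00937). How much of this signal is *Dtx3l*, the ubiquitin ligase of the pair, cannot be told from the shared probe set.

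*Parp14*, *Dtx3l* and *Parp9* lie next to each other among the protein-coding genes of chromosome 16 in the RefSeq table. The 3 protein-coding genes on either side of them all lay above background in each array, and none passed 1.5-fold. On the *Parp14* side, the log2 difference of IFNγ against control was 0.10 for *Hspbap1*, −0.19 for *Slc49a4* and −0.14 for *Sema5b*. On the *Parp9* side it was 0.04 for the importin gene *Kpna1*, −0.21 for *Wdr5b* and −0.05 for *Fam162a*. The rise was thus seen in the PARP genes and the shared probe set of the locus and not past 1.5-fold in the genes measured around them.

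*Parp12* encodes a transferase with zinc fingers. Its log2 signal was 10.44 with both agents and 10.26 with IFNγ, against 9.44 with benztropine and 9.18 in control. The differences were 1.09 (2.13-fold) for IFNγ against control and 1.00 (2.01-fold) for both agents against benztropine, so this gene passed 2-fold in both pairs. Limma gave 1.05 ± 0.07 (SE, adjusted p = 0.00926). *Parp11*, which encodes a transferase with a WWE domain, had 8.96 with both agents and 8.77 with IFNγ, against 8.10 with benztropine and 7.92 in control. Its rise was the smallest of the 4 and the most alike in the 2 pairs, at 0.85 (1.81-fold) and 0.85 (1.80-fold), with 0.85 ± 0.07 by limma (SE, adjusted p = 0.0168).

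RefSeq promoter sequences (GRCm38.p6, 250 bases before to 50 after the start) were used for 7 of the 10 genes. Those of *Parp9*, *Parp10* and *Parp14* were not analysed here. They were searched on both strands for GAAA followed after any 2 bases by GAAA, as in the interferon-stimulated response element, for TTC followed after any 3 bases by GAA, the gamma-activated site, and for TTC and GAA with 4 bases between, the spacing of STAT6. In that order the motifs occur in 3.44%, 8.30% and 6.95% of 32851 promoters of this length, and 17.3% hold at least 1 of them. Matches were found in 2 of the 8 promoters of the 7 genes, those of *Parp11* and *Dtx3l*, a count too small to set apart from that share. Their sequences are shown with the matches in capitals, next to that of *Parp1*, a DNA repair member without a match. In *Parp11* (chr6:127446590-127446889, plus strand), a match of the first motif on the other strand (TTTCGATTTC, from position −44) overlaps one of the gamma-activated site (TTCTTGGAA, from position −37). Position 1 is the first base of the transcript. *Parp11* has a second start in the table, whose promoter held no match. In *Dtx3l* (chr16:35938978-35939277, minus strand), the match is to the motif with 4 bases between (TTCTGGGGAA, from position 35). The sequence of *Parp1* is chr1:180568641-180568940, plus strand. *Parp12*, *Parp2*, *Parp3* and *Parp8* held no match in this window.
Parp11: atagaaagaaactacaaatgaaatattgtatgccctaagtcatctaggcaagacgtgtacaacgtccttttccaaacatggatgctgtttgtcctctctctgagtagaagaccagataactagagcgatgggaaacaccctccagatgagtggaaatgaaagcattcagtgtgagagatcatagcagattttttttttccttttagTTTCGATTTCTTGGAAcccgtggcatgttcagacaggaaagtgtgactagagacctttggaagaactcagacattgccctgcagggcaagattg
Dtx3l: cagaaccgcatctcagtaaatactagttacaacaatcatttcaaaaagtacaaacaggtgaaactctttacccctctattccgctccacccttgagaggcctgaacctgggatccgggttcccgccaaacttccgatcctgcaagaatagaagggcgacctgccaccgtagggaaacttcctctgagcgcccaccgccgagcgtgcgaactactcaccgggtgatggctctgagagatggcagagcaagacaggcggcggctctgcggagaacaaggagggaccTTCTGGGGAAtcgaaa
Parp1: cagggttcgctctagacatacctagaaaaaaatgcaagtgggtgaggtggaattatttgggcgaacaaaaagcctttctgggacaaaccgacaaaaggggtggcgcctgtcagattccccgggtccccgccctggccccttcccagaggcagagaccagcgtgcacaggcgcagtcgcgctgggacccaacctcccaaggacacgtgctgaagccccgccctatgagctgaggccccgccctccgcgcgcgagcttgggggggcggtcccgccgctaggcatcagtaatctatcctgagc

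The probe set annotated to *Parp10* and *Plec* had a log2 signal of 8.28 with both agents and 8.10 with IFNγ, against 7.54 with benztropine and 7.56 in control. *Parp10* encodes a transferase that attaches single units, and *Plec* the cytoskeletal linker plectin. The arrays with IFNγ were again the higher ones, with differences of 0.54 against control, under 1.5-fold, and 0.74 (1.67-fold) for both agents against benztropine. Limma gave 0.64 ± 0.08 (SE, adjusted p = 0.0647). A separate probe set of *Plec* alone had 8.63 with both agents and 8.63 with IFNγ, against 8.67 with benztropine and 8.74 in control, differences of −0.11 and −0.04. It was looked at after the values of the shared probe set were seen.

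Of the DNA repair members, *Parp1*, the main sensor of strand breaks, had a log2 signal of 9.15 with both agents and 9.05 with IFNγ, against 9.19 with benztropine and 9.08 in control. *Parp2*, which acts beside *Parp1*, had 8.91 with both agents and 8.92 with IFNγ, against 9.01 with benztropine and 8.79 in control. In both genes the arrays with and without IFNγ overlapped. The difference for IFNγ against control was −0.03 for *Parp1* and 0.13 for *Parp2*, and for both agents against benztropine −0.04 and −0.09. The limma estimate for IFNγ was −0.03 for *Parp1* (95% confidence interval −0.22 to 0.15) and 0.02 for *Parp2* (−0.21 to 0.25), intervals that lie within 1.5-fold. The intervals hold no spread between cultures, so they set no limit on the change of either gene. The limma adjusted p-values were 0.889 for *Parp1* and 0.953 for *Parp2*.

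*Parp3* stood between the groups. Its log2 signal was 9.27 with both agents and 9.30 with IFNγ, against 8.88 with benztropine and 8.79 in control, so both arrays with IFNγ lay above both without it. The difference was 0.51 (1.43-fold) against control and 0.38 (1.31-fold) for both agents against benztropine. Limma gave 0.45 ± 0.08 (SE, 95% confidence interval 0.25 to 0.65, adjusted p = 0.130). With a variance trend its limma adjusted p was 0.0099, and with only probe sets above background tested 0.0242. *Parp8*, a transferase whose role is little known, had 9.59 with both agents and 9.60 with IFNγ, against 9.50 with benztropine and 9.55 in control, and limma gave 0.07 for IFNγ (95% confidence interval −0.12 to 0.25, adjusted p = 0.749).

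Set side by side, the median log2 difference of IFNγ against control was 1.13 over the 4 interferon-inducible members measured alone and 0.13 over the 3 DNA repair members, 1.00 apart. For both agents against benztropine the medians were 0.93 and −0.04, 0.97 apart. The lowest interferon-inducible member, *Parp11*, lay above the highest DNA repair member, *Parp3*, in both pairs (0.85 against 0.51, and 0.85 against 0.38). The median over 22180 gene symbols was −0.001 for IFNγ against control and −0.04 for both agents against benztropine. Genes of the same arrays are not replicates, so this distance has no test.

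**Figure D2:**
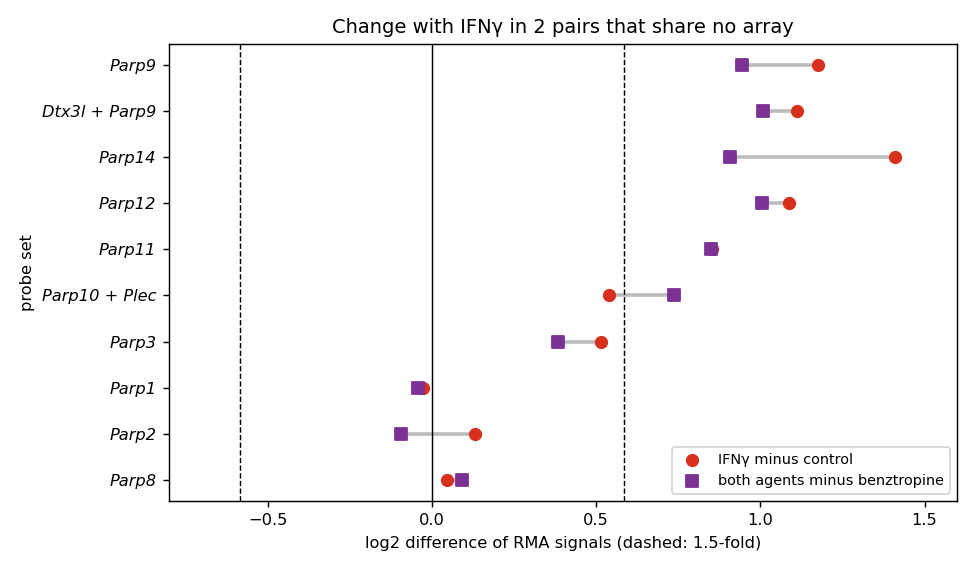
Log2 difference (x axis) of each probe set of the family (y axis) for IFNγ minus control (circles) and both agents minus benztropine (squares), joined by a line, with 1.5-fold dashed and no error bars. *Parp9*, *Parp11*, *Parp12* and *Parp14* lie past 1.5-fold in both pairs, *Parp3* lies at 0.51 and 0.38, and *Parp1*, *Parp2* and *Parp8* lie near 0; *Parp14* has the widest gap between pairs.

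Benztropine alone changed none of the 8 genes past 1.5-fold. Against control, the 4 interferon-inducible members differed by 0.41 for *Parp14*, 0.26 for *Parp12*, 0.20 for *Parp9* and 0.18 for *Parp11*. *Parp2* differed by 0.22, *Parp1* by 0.11, *Parp3* by 0.09 and *Parp8* by −0.05. Past 1.5-fold, 0.284% of the named probe sets lay above control and 0.182% below it. Among probe sets above background, 0.613% had a larger difference than *Parp14* and 7.91% a larger one than *Parp9*. The medians were 0.23 for the interferon-inducible and 0.11 for the DNA repair members, beside 0.01 over all gene symbols.

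With both agents against IFNγ alone, none of the 8 genes passed 1.5-fold either, where 0.249% of the named probe sets did so upward and 0.276% downward. The differences were −0.09 for *Parp14* and −0.03 for *Parp9*, against 0.18 for *Parp12* and 0.18 for *Parp11*. The DNA repair members lay between −0.04 (*Parp3*) and 0.09 (*Parp1*). *Parp2*, *Parp3* and *Parp8* were within 0.04 of 0, and the sign of *Parp2* and *Parp8* turned positive with quantile normalization and with a trend on the signal removed. Limma called 0 probe sets for benztropine in either direction, while without adjustment a p under 0.05 was reached by 930 upward and 927 downward. The estimate was largest in *Parp12*, at 0.22 ± 0.07 (SE, 95% confidence interval 0.03 to 0.41, limma adjusted p = 0.676).

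**Figure D3:**
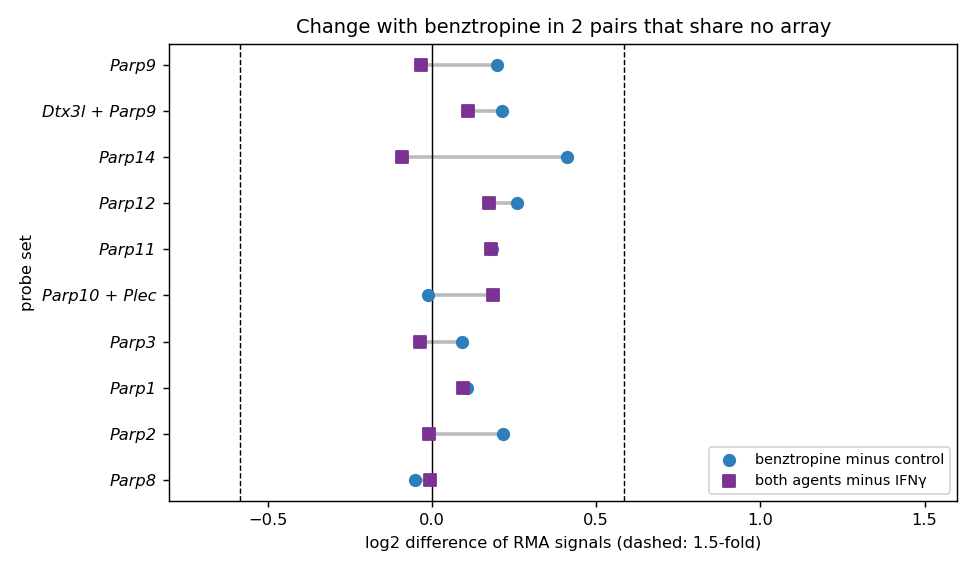
Log2 difference (x axis) of each probe set of the family (y axis) for benztropine minus control (circles) and both agents minus IFNγ (squares), joined by a line, with 1.5-fold dashed and no error bars. All points lie inside 1.5-fold; *Parp14* is highest against control at 0.41 and at −0.09 in the presence of IFNγ.

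The difference of the differences, the effect of IFNγ with benztropine minus that without it, was −0.50 for *Parp14* and −0.23 for *Parp9*. It was −0.08 for *Parp12* and −0.002 for *Parp11*, and −0.23 for *Parp2*, −0.13 for *Parp3* and −0.01 for *Parp1* of the DNA repair members. It was positive for *Parp8*, at 0.04, and for the probe set of *Parp10* and *Plec*, at 0.20. Among probe sets above background in all arrays, 0.522% had a lower value than *Parp14* and 9.15% a lower one than *Parp9*. In *Parp14* the array with benztropine alone lay 0.41 above control, while both agents differed by −0.09 from IFNγ alone. With 1 array per condition it was not tested, and the additive limma fit takes it as error.

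The genes nearest in pattern were found by Euclidean distance over the 3 log2 differences from control, among 13422 probe sets above background in both arrays with IFNγ. For *Parp14* these were *Irf7*, which encodes an interferon regulatory factor (distance 0.07), the oligoadenylate synthetase gene *Oas1b* (0.07) and the helicase gene *Ddx60* (0.15). For *Parp9* they were *Rnf19b* (0.08), *Mndal* (0.09) and *H2-T24* (0.09). Chosen after the values were seen, *Parp12* lay nearest to *Casp4* (0.07), *Nampt* (0.08) and *Tnf* (0.11), and *Parp11* to *Hcar2* (0.05), *Psme1* (0.06) and *Gsdmd* (0.08). The differences share the control array.

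The other PARP family genes did not follow the interferon-inducible members as a group. Of 7 measured, 1 rose with IFNγ against control and 0 with both agents against benztropine, with medians of 0.05 in both pairs, beside 309 of 22180 gene symbols that rose against control. The 1 was *Zc3hav1*, the zinc finger antiviral protein that lacks transferase activity. Its log2 signal was 9.48 with both agents and 9.64 with IFNγ, against 9.13 with benztropine and 8.97 in control. Its difference was 0.67 (1.59-fold) against control and 0.36 in the separate pair, and limma gave 0.51 ± 0.10 (SE, adjusted p = 0.171). *Tiparp*, the tankyrase genes *Tnks* and *Tnks2*, *Parp4*, *Parp6* and *Parp16* had differences between −0.03 and 0.06 against control.

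Of the 4 other deltex genes, *Dtx1*, *Dtx2*, *Dtx3* and *Dtx4*, none passed 1.5-fold, and their differences for IFNγ against control ran between −0.04 and 0.10. With both agents against benztropine they ran between −0.26 and −0.06, with a median of −0.17. Enzymes that remove or read ADP-ribose gave 0 changes past 1.5-fold among 8 measured in either pair, with medians of 0.02 for IFNγ against control and 0.00 for both agents against benztropine. In these pairs *Gdap2* differed by 0.13 and −0.01, the hydrolase gene *Adprhl2* by 0.12 and 0.12, the nudix hydrolase gene *Nudt5* by −0.10 and 0.09, and the glycohydrolase gene *Parg* by 0.10 and −0.03. Among 14 genes of DNA strand break repair, partners of the DNA repair members, 0 passed 1.5-fold in either pair, and their median was −0.04 for IFNγ against control. *Hpf1*, whose product directs PARP1 and PARP2 to serine, differed by −0.11 and 0.07 in the 2 pairs, and the chromatin remodeler gene *Chd1l* by −0.11 and −0.18. The largest difference in this list was that of *Xrcc6*, a subunit of Ku, at −0.27 against control, beside −0.05 in the separate pair.

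RNA of 12 genes of NAD metabolism was measured, and 2 of them rose in both pairs, beside 1.02% of the named probe sets. Of the 12, 6 were above background in control and 9 in at least 1 array, so the list medians rest partly on genes at background. *Nampt*, the rate-limiting enzyme of NAD salvage, had a log2 signal of 10.78 with both agents and 10.54 with IFNγ, against 9.67 with benztropine and 9.44 in control. The differences were 1.10 (2.14-fold) and 1.11 (2.16-fold), and limma gave 1.10 ± 0.07 (SE, adjusted p = 0.00696). *Bst1*, an enzyme that consumes NAD, had 7.96 with both agents and 8.05 with IFNγ, against 6.82 with benztropine and 6.54 in control. The control value is below background, so the fold was taken against the background of that array, 6.69. *Bst1* rose at least 2.56-fold against control and 2.22-fold with both agents against benztropine, and its limma adjusted p was 0.0165. *Sarm1*, another NAD-consuming enzyme gene, differed by −0.33 against control and 0.04 in the separate pair, and *Nmnat1*, which makes NAD in the nucleus, by 0.25 and −0.15. Neither kept its sign, and the medians of the list were 0.04 and 0.00.

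In the interferon signaling list, 6 of 12 genes rose against control and 6 with both agents against benztropine, with medians of 0.61 and 0.58. *Stat2* differed by 1.83, *Irf1* by 1.74, *Usp18* by 1.47 and *Irf7* by 1.38 against control, so that the 1.41 of *Parp14* lay within the range of these genes. *Stat2* encodes a transcription factor of the type I interferon response, *Irf1* and *Irf7* interferon regulatory factors, and *Usp18* a brake on interferon receptor signaling. With benztropine against control, *Usp18* differed by 0.56, *Irf7* by 0.41, *Stat2* by 0.27 and *Irf1* by −0.14, beside the 0.41 of *Parp14*, and the list median was 0.08.

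**Figure D4:**
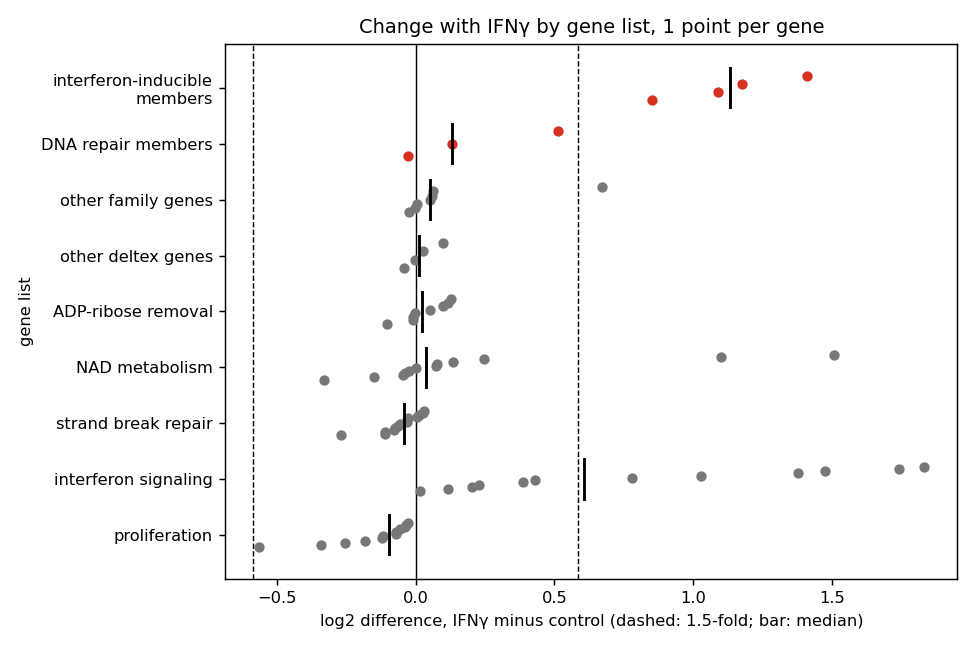
Log2 difference of IFNγ minus control (x axis) for each gene of the lists (y axis), 1 point per gene as the mean of its own probe sets, with the list median as a bar and 1.5-fold dashed. The medians are 1.13 for the interferon-inducible members, 0.13 for the DNA repair members and 0.61 for interferon signaling, and the other lists center near 0 with *Zc3hav1*, *Nampt* and *Bst1* past 1.5-fold.

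The cultures hold other cells beside astrocytes, and in RNA of whole cultures fewer cells of a type and less RNA per cell cannot be told apart. All 12 astrocyte genes measured were above background in control, and their mean log2 signal was 9.61 with both agents and 9.71 with IFNγ, against 9.80 with benztropine and 9.83 in control. All 16 microglial and macrophage genes were above it too. Their mean signal was 10.81 with both agents and 10.84 with IFNγ, against 10.71 with benztropine and 10.58 in control. With IFNγ against control, 3 of 16 were higher past 1.5-fold, beside 309 of 22180 gene symbols. The differences of the 16 in this pair ran from −0.41 to 0.84, with a median of 0.19. With both agents against benztropine, 1 was higher and 1 lower. Of the genes of other cells, 6 of 8 for oligodendrocytes, 4 of 8 for neurons, 3 of 5 for fibroblasts, 1 of 4 for endothelium and 1 of 7 for T and NK cells were above background in control. The fibroblast gene *Dcn*, below background with IFNγ alone, was at least 1.57-fold lower with IFNγ than in control. It differed by −1.41 with both agents against benztropine and by 1.11 with benztropine against control. The medians of the 5 fibroblast genes in these comparisons were −0.20, −0.18 and 0.02. With benztropine against control, *Col1a1* differed by −0.05, *Col1a2* by −0.07 and *Pdgfrb* by 0.02. *Lum*, below background in every array, differed by 0.89. In the proliferation list, 0 of 12 passed 1.5-fold with IFNγ against control, with *Mki67* at −0.57 and a median of −0.10. With both agents against benztropine 1 was lower, *Mki67* at −0.59, and the median was −0.16. The part of these shifts in the values of the PARP genes was not tested.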

How the data were processed

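The authors hybridized RNA of 3 mixed cultures per condition (500 ng) to 1 array each and deposited RMA log2 signals made in Affymetrix Expression Console, per the labels. The deposited table was used as it stands, with no columns set aside. Probe sets were named from the GEO platform annotation: 23521 carry 1 symbol, 1820 several and 16004 none, and those without a symbol were left out as in the study's methods. Log2 differences between arrays were set against 1.5-fold, and with 1 array per condition they carry no error. An additive fit over the 4 arrays used limma 3.58.1 (R 4.3.3) with Benjamini-Hochberg adjustment over 25341 probe sets, and was tested on simulated data. Its residual is the departure of the 4 arrays from additive effects of the agents, moderated by limma across probe sets. Its p-values, SE and confidence intervals rest on that departure. They measure no spread between cultures or between arrays of the same condition. A listed gene with more than 1 probe set of its own was given their mean. The probe sets of *Irf8* differed by 0.58 and 0.19 for IFNγ against control. The rest ran in Python 3.11.15 with pandas 2.3.3.

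All family members were named, with at most 4 genes of each other list, taken from those with the largest difference of IFNγ against control, any gene of lists of 7 or fewer, the 3 genes nearest in pattern, and the flanking genes at the *Parp9* locus. The members, the gene lists and the motifs were chosen with earlier results of these data known. Alternatives were 2-fold, other background levels, quantile and loess normalization, probe sets without a symbol and other variance settings. Some listed genes are not reported here.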

Additional observations from a re-analysis of the deposited data

Results flagged for a closer look

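The counts of members rest on probe sets that carry 1 symbol, and a signal past 1.5-fold was also seen outside them. The probe set shared by *Dtx3l* and *Parp9* had a log2 difference of 1.11 for IFNγ against control and 1.01 for both agents against benztropine. The probe set shared by *Parp10* and *Plec* had 0.74 for both agents against benztropine. Which gene of each pair gave the signal was not tested.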

How the results depend on the processing

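Of 66 comparison values recomputed under the alternatives, 62 stayed within set margins. A count stayed if it was equal to the reported count or within 1.5-fold of it, so 5 or 6 members in place of 4 stayed. A group distance stayed if it moved by no more than the SD of the 2 separate pairs. At 2-fold, 1 member, *Parp12*, was higher with both agents against benztropine, in place of 4. With the shared probe sets counted, an alternative chosen after seeing the data, the interferon-inducible members lay 0.97 above the DNA repair members for IFNγ against control, in place of 1.00, and 0.15 for both agents against IFNγ, in place of 0.08. Limma called 0 members for IFNγ with probe sets without a symbol kept, in place of 4. The log2 changes of the members were the same in both fits. The SE was larger with these probe sets kept, at 0.079 in place of 0.073 for *Parp12*. The prior degrees of freedom that limma took across probe sets were 2.315 in place of 3.787. The adjustment ran over 41345 probe sets in place of 25341. How much each of these added to the loss was not tested. Of 192 differences of single members, 188 stayed on their side of the threshold, and the other 4 were lost at 2-fold. The background filters and the choice of the strongest probe set could not move these values. Each member counted has 1 probe set of its own, above both background levels in all 4 arrays. For the same reason they could not move the member counts and group distances in the array pairs, which are among the 66. *Parp3* was called by limma under a variance trend and above background only.

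Over the whole array, limma gave 249 probe sets up and 11 down for IFNγ. These became 560 and 181 with a variance trend, 448 and 129 above background only, 14 and 0 with probe sets without a symbol kept, and 295 and 26 after quantile normalization. At an adjusted p under 0.1, 332 were higher and 34 lower. At 2-fold, 172 were higher and 4 lower with IFNγ against control, 141 and 9 with both agents against benztropine, 5 and 3 with benztropine against control, and 1 and 1 with both agents against IFNγ. The remaining counts are at 1.5-fold. With probe sets without a symbol kept, they were 1096 and 595, 1200 and 547, 583 and 762, and 688 and 748. As reported, in the same order, the counts were 392 and 71, 355 and 88, 72 and 46, and 63 and 70. Above background only, 20 and 37 were lower in the first and second pair, 24 were higher and 6 lower in the third, and 17 and 11 in the fourth. No paired analysis of replicates was possible because each condition is 1 array, so there are no replicate arrays to pair. The additive limma fit already compares arrays with and without IFNγ at the same benztropine state.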
